A study of Mus musculus with 6 samples.

Results

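Collagen genes were compared between Chd4 knockout and control mouse β-cells by the open chromatin in and around each gene. The family comprised the 44 protein-coding genes of the mouse RefSeq annotation whose symbol is Col, a number, a, and a number, out of 21887 protein-coding genes. The symbol decided membership, but the family was selected on the covered lengths and the gained and lost regions reported here, known from an earlier look at these libraries. These values, adjusted p included, therefore describe the genes and support nothing about the family. The measure came from ATAC-seq, an assay that marks accessible DNA by letting the transposase Tn5 insert adapters into it, in Tomato+ β-cells sorted by flow from dispersed islets of tamoxifen-treated mice. The knockout group (genotype Chd4KO, called Chd4Db in the series design) had 3 libraries and the control group (genotype Control) had 3. Both groups share the tamoxifen treatment and the sort for Tomato fluorescence. The sources used here do not give the driver of the deletion, the age of the mice, or whether each library stands for a different animal, so p-values measure only the spread between these libraries, which may be technical. Each library has its own deposited peak list, and the depth in reads behind the lists is unknown.

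Collagens are secreted or membrane-bound proteins whose chains wind into a triple helix. Fibrillar collagens form the cross-striated fibrils of connective tissue, type IV forms the sheet of basement membranes, type VI forms beaded filaments beside them, and the smaller classes link fibrils, anchor membranes or sit in the cell surface. In the pancreas collagen is known mainly as a product of mesenchymal, stellate and endothelial cells, while β-cells lie against basement membrane that is made largely by the islet vessels. Chd4 is a helicase that drives nucleosome remodeling by NuRD, a complex that also deacetylates histones. The comparison asks how the loss of Chd4 alters chromatin accessibility in mature β-cells.

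A gene's territory was its span extended by 10 kb at both ends, and its covered length was the stretch of that territory lying under peaks, in bp, after scaling all libraries to one total. Of the 44 genes, 10 rose and 2 fell in knockout libraries by limma at an adjusted p of 0.05 over all 17711 genes tested, and 32 were not past that threshold. The genes that rose were Col6a1, Col22a1, Col17a1, Col13a1, Col6a5, Col6a4, Col5a3, Col4a3, Col14a1 and Col18a1, and those that fell were Col5a2 and Col8a2. Of all genes tested, 7.57% were higher and 14.6% lower by the same rule, and since the family was chosen on this contrast, nothing is read from the difference. The 3 knockout values all lay above the 3 control values for 14 collagen genes, against 13.1% of all genes, and all below them for 7, against 32.7% of all genes. All 44 genes passed the minimum mean covered length of 300 bp. The log2 fold changes ran between -0.92 and 1.04 with a median of 0.02, beside a median of -0.09 over all genes. Without scaling to equal totals, the median over all genes was 0.06, 14 collagen genes were higher and 1 was lower, and scaling by the regions shared by all libraries gave 16 higher and 1 lower. Over all genes the balance of calls turned with the scaling. It was 2586 higher and 510 lower without scaling, and 2564 and 683 with scaling by shared regions. A gene near 0 therefore has no settled direction. Higher collagen genes numbered 5 without knockout library 1 and 6 without knockout library 2. They numbered 4 without control library 1 and 5 without control library 3. Higher calls over all genes fell too, from 1340 to 703, 859, 940 and 698 in the same order. Lower collagen genes numbered 1 without knockout library 1, 3 without knockout library 3, and 0 without control library 1 or control library 2. Lower calls over all genes went from 2577 to 1150, 1842, 1160 and 2225 in that order. In bulk libraries, fewer cells with open chromatin at a gene and less open chromatin per cell cannot be told apart.

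**Figure D1:**
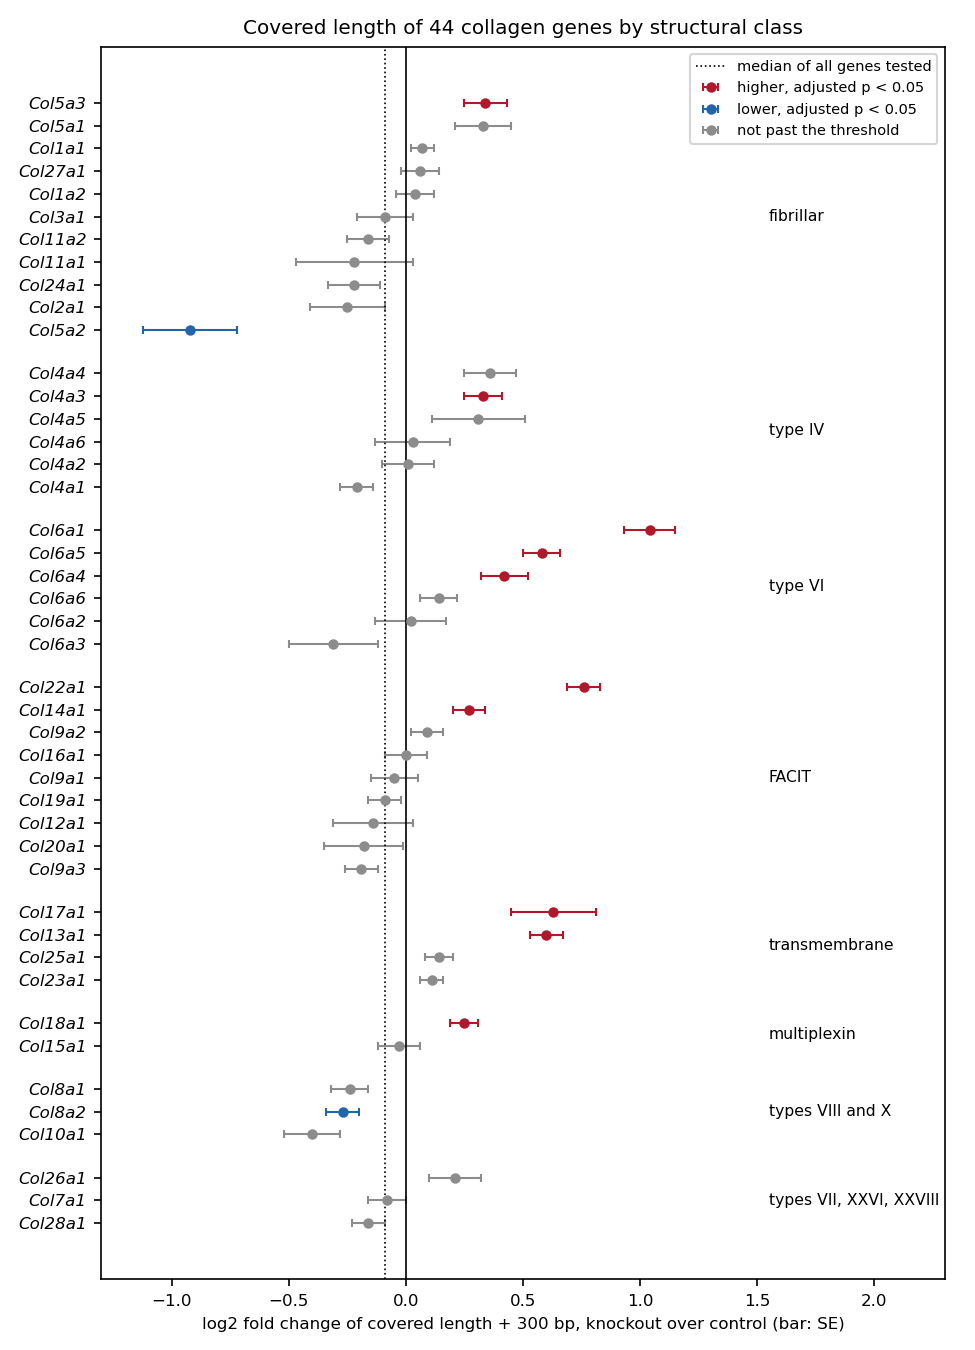
Log2 fold change of covered length plus 300 bp, knockout over control, for 44 collagen genes grouped by structural class; points are estimates, bars are standard errors, and the dotted line is the median of all genes tested. Type VI and transmembrane genes lie mostly to the right of 0, Col5a2 lies at -0.92, and the genes of types VIII and X all lie to the left of 0.

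Regions called in knockout libraries alone outnumbered those called in control libraries alone at collagen genes, as they did over all genes. Overlapping peaks (1 bp or more) were joined across libraries into regions. A region was termed gained if the 3 knockout libraries and no others had a peak in it, and lost if the 3 control libraries and no others did. The collagen territories held 401 distinct regions, of which 53 were gained, 8 were lost and 199 had a peak in all 6 libraries. Gained regions made up 13.2% and lost regions 2% of the collagen regions, while in the territories of all protein-coding genes 8.93% of regions were gained and 2.83% lost. Per Mb of territory this came to 8.48 gained and 1.28 lost regions at collagen genes, against 7.55 and 2.39 at all genes. The knockout lists were longer, with 119088 to 124125 peaks against 100109 to 110693 in control lists. With each list limited to its 50000 strongest peaks, 17 collagen regions were gained and 15 lost, beside 5782 and 4562 over all regions. At least 1 gained region stood at 23 of the 44 collagen genes, beside 33% of all genes, and at least 1 lost region at 7, beside 13.1% of all genes, while 18 collagen genes had neither. The bases of a gained region are part of the covered length, so both measures move together. Collagen genes are long, with a median span of 114 kb against 21.9 kb for all genes tested, so a count per gene is not comparable with that of an average gene. Of the 1998 genes tested that were at least as long as the collagen median, 10.6% were higher and 11.2% were lower, and of the 22 collagen genes of that length 4 were higher and 1 was lower.

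**Figure D2:**
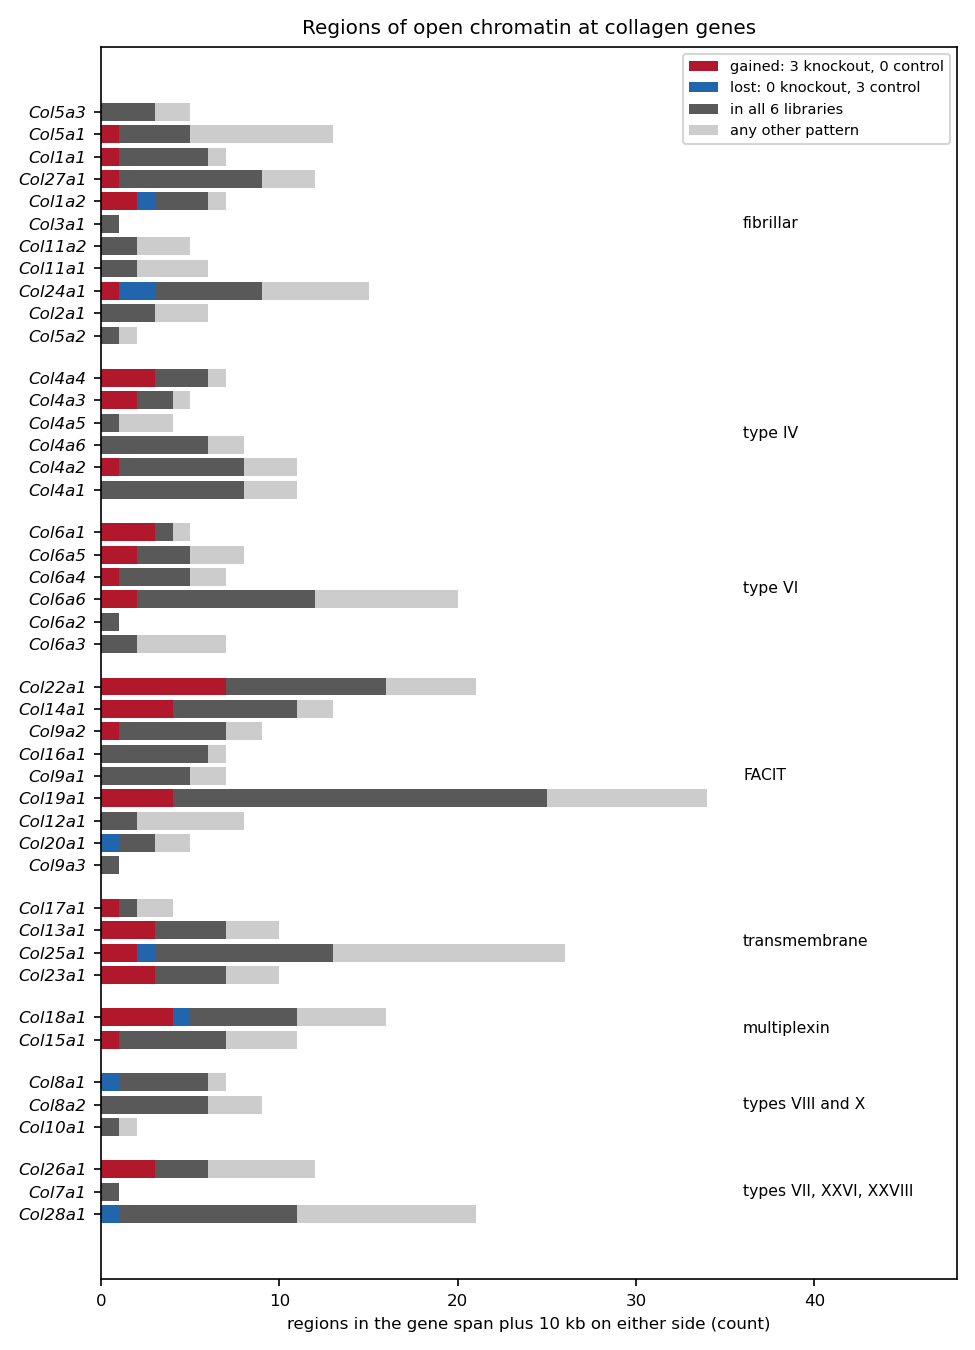
Number of regions in the territory of each collagen gene, divided into gained, lost, called in all 6 libraries, and any other pattern; the horizontal axis is a count. Col22a1 has 7 gained regions, the most of the family, and Col24a1 with 2 lost regions is the only gene with more than 1.

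Gained regions lay mostly inside the genes, as did regions called in all 6 libraries, and seldom at gene ends. Of the 53, 44 touched a collagen gene span and 9 lay between genes, and of the 199 called in all libraries 165 touched such a span. The 44 include 2 within 1 kb of an end of a collagen gene, at Col1a2 and Col22a1. Of the 199 regions called in all 6 libraries, 34 lay at an end of a collagen gene or of another gene. Where the strand was known, 1 of 28 gained regions lay in the first 10% of the gene (3.57%), against 30 of 139 regions called in all libraries (21.6%). Gained regions were narrow, with a median width of 409 bp against 743 bp for regions called in all libraries, and the median of lost regions was 421.5 bp. Over all genes the medians were 382 bp for gained regions and 788 bp for those called in all libraries. By the authors' −log10 q, their peaks ranked near the middle of the knockout lists, at median percentiles of 47.9, 46.9 and 37.4 in knockout libraries 1, 2 and 3. Peaks of the 8 lost regions ranked lower in the control lists, at median percentiles of 20.9, 32.0 and 26.4 in control libraries 1, 2 and 3. The balance of widths at regions in all 6 libraries depended on the scaling. Before it, their 3 knockout widths all exceeded the 3 control widths in 24.1% at collagen genes, against 17.5% at all genes, and were all smaller in 12.6% against 14.8%. After it, they were all larger in 10.1% at collagen genes, against 6.5% at all genes, and all smaller in 30.7% against 42.4%.

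Most start sites of collagen genes lay under a peak in every library or in none. These are termed open and closed here, which states only whether a peak was called. RefSeq start windows, running 250 bases before to 50 bases after a start, were available on GRCm38.p6, the assembly behind mm10, for 35 of the 44 genes, with 38 windows in all. A peak of all 6 libraries overlapped 17 windows (44.7%, against 44.5% of 32851 windows of all genes), and no peak of any library overlapped 16 (42.1%, against 49.2%). The other 5 windows, at Col4a4, Col11a1, Col1a2, Col4a1 and Col4a2, had a peak in some libraries. In the 250 bases before the start, open windows held a median of 14 CpG dinucleotides and closed ones 3. Of the genes that rose, Col5a3 and the first start of Col18a1 had a peak in all 6 libraries, while Col13a1, Col6a1, Col6a4, Col6a5 and Col17a1 had none in any library. Stretches upstream of 5 starts are shown for the contrast, namely an open start with a covered length that rose (Col5a3, chr9:20815118-20815317, minus strand), an open start whose region was wider in knockout libraries (Col18a1, chr10:77166531-77166780, minus strand), 2 closed starts of genes that rose (Col13a1, chr10:61979207-61979358, minus strand, and Col6a1, chr10:76726045-76726294, minus strand), and the start of Col1a2 (chr6:4505368-4505617, plus strand). Each is the part of the RefSeq window upstream of the whole gene span, written 5′ to 3′ in the direction of the gene. Capitals mark the TATA box (TATAAA), the GC box (GGGCGG) and the CCAAT box (CCAAT), and a match on the other strand stands as its reverse complement.
Col5a3: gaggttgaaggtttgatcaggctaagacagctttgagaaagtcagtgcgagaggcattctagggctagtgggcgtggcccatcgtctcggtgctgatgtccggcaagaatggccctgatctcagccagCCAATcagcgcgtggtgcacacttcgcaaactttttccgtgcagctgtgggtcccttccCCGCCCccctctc
Col18a1: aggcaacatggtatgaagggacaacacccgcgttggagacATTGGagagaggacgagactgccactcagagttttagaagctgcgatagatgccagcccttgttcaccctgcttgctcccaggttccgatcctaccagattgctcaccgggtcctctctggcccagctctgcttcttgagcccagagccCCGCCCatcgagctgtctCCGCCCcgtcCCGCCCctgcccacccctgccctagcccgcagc
Col13a1: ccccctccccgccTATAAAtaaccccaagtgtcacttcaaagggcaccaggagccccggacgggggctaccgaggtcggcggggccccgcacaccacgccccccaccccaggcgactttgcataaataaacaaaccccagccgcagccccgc
Col6a1: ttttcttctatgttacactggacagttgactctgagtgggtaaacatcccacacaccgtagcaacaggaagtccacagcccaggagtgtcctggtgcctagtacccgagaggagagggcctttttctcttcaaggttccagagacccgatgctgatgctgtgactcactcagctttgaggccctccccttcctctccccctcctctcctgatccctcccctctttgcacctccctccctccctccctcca
Col1a2: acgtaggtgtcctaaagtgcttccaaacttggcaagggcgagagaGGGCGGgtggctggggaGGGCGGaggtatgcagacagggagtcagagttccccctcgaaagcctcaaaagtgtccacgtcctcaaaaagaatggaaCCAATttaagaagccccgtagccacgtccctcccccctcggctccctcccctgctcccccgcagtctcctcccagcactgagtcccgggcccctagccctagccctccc
Over the 250 bases, on either strand, the GC box was found in 22 of the 38 collagen windows and in 32.7% of all windows, the CCAAT box in 13 and 33.8%, and the TATA box in 5 and 12.4%. A match describes the letters and does not show a bound factor. The Col6a1 stretch holds 3 CpG dinucleotides and no copy of the 3 motifs. The Col13a1 window holds 24 CpG dinucleotides and had no peak in any library.

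**Figure D3:**
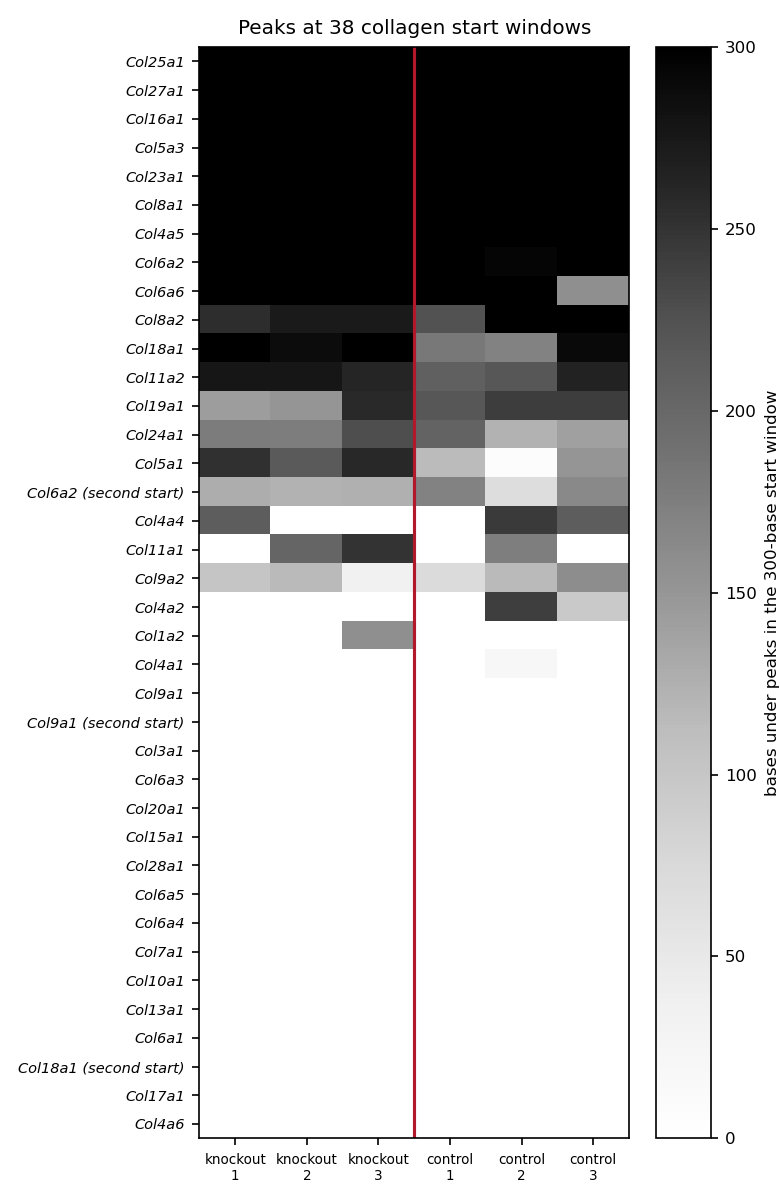
Bases under peaks in each 300-base RefSeq start window (shade, 0 to 300) of collagen genes in the 3 knockout libraries, left of the red line, and the 3 control libraries, right of it. At Col1a2 knockout library 3 alone had a peak, covering 156 bases, and at the first start of Col18a1 the knockout libraries had 300, 286 and 300 bases covered against 181, 170 and 290 in control libraries.

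Type VI genes had the largest rise of the family at Col6a1, which encodes a chain of the main type VI trimer. The covered length of Col6a1 (chr10:76708792-76726044) was 1691, 1388 and 1828 bp in knockout libraries, against 702, 655 and 557 bp in control libraries. Every knockout library was above every control library, with a log2 fold change of 1.04 ± 0.11 (SE, n = 3 each, adjusted p = 0.0022, limma). Its 3 gained regions all lay outside the gene span. One lay 2198 bp beyond the start (chr10:76728243-76728727), with 291, 485 and 316 bp in knockout libraries, another 6770 bp beyond the start (chr10:76732815-76733612), with 798, 361 and 583 bp, and the third 5686 bp beyond the other end (chr10:76702765-76703105). The region further upstream that was called in all libraries (chr10:76734902-76735567) was narrower in knockout libraries before scaling, at 360, 363 and 466 bp against 639, 656 and 508 bp in control libraries. With the lists limited to their 50000 strongest peaks, which leaves out peaks below the upper ranks, the log2 fold change of Col6a1 was -0.11 (adjusted p = 0.76, limma).

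Of the other type VI genes, 2 rose, both in a cluster of 3 neighbors. Col6a4, Col6a5 and Col6a6, whose chains resemble the α3 chain, lie next to each other on chromosome 9. Col6a5 (chr9:105856070-105962463) had 3002, 2571 and 2557 bp in knockout libraries, against 1643, 1773 and 1700 bp in control libraries, a log2 fold change of 0.58 ± 0.08 (SE, n = 3 each, adjusted p = 0.0039, limma). Col6a4 (chr9:105990318-106096828) had 2953, 3294 and 3063 bp in knockout libraries, against 2069, 2621 and 2052 bp in control libraries, a log2 fold change of 0.42 ± 0.10 (SE, n = 3 each, adjusted p = 0.021, limma). In both genes the groups did not overlap, and both had gained regions, 2 at Col6a5 and 1 at Col6a4. Left out one at a time, knockout library 2, control library 1 and control library 3 each ended the call of Col6a4, at an adjusted p of at most 0.074. The 50000 strongest peaks ended it too (0.40, adjusted p = 0.077, limma). The call of Col6a5 was lost with 50 kb on either side (log2 fold change 0.13, adjusted p = 0.16, limma) and with the 50000 strongest peaks (0.40, adjusted p = 0.28, limma). Col6a6 had 9002, 10490 and 8465 bp in knockout libraries, against 8268, 8171 and 8834 bp in control libraries, and the groups overlapped (log2 fold change 0.14 ± 0.08, SE, n = 3 each, adjusted p = 0.26, limma). It had 2 gained regions. Col6a2 and Col6a3, which encode the partners of the Col6a1 chain, had no gained or lost region, and their log2 fold changes were 0.02 ± 0.15 and -0.31 ± 0.19 (SE, n = 3 each). Over the 6 genes of the class, 3 rose and none fell, with a median log2 fold change of 0.28. Of all genes tested, 7.57% were higher and 14.6% lower, with a median of -0.09. Since the family was chosen on this contrast, nothing is read from the difference.

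Fibril-associated collagens had 103 of the regions, the most of any class. Of these, 16 were gained, in 4 of 9 genes, and 1 was lost. In the territories of all genes 8.93% of regions were gained and 2.83% lost, and 33% of all genes had a gained region. Col22a1, known as a collagen of tissue junctions such as that of muscle and tendon, had 7 of the 16 gained regions. Its covered length (chr15:71795795-72150979) was 8941, 9227 and 9623 bp in knockout libraries, against 5707, 5445 and 4893 bp in control libraries. The groups lay far apart relative to their spread, at a log2 fold change of 0.76 ± 0.07 (SE, n = 3 each, adjusted p = 0.0015, limma). The gained regions were spread along the gene, 5 inside it, 1 at its high-coordinate end (chr15:72150318-72150983, with 564, 666 and 577 bp in knockout libraries) and 1 beyond the other end. A region called in all libraries (chr15:72033915-72034657) was wider in knockout libraries before scaling, at 724, 703 and 743 bp against 383, 394 and 353 bp in control libraries. Col14a1, whose product binds to collagen fibrils, had 6264, 6388 and 6460 bp in knockout libraries, against 5108, 5759 and 4846 bp in control libraries. It rose by a log2 fold change of 0.27 ± 0.07 (SE, n = 3 each, adjusted p = 0.034, limma) and had 4 gained regions, all inside the gene (chr15:55307644-55520803). Of the 6 fits with a library left out, that without control library 2 kept the call, and the other 5 gave an adjusted p of up to 0.11, while 50 kb on either side gave a change of 0.12 (adjusted p = 0.13, limma). With the 50000 strongest peaks the change of Col14a1 was 0.44 (adjusted p = 0.14, limma).

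Col19a1, a collagen of basement membrane zones, had the longest covered length of the family, at 14816, 13234 and 15417 bp in knockout libraries against 15618, 15405 and 15223 bp in control libraries. The groups overlapped, and the log2 fold change of -0.09 ± 0.07 (SE, n = 3 each, adjusted p = 0.34, limma) became 0.08 without scaling. Of its 34 regions, 21 were called in all libraries and 4 were gained. One of these (chr1:24376130-24376615) was among the higher-ranking gained regions, at percentiles of 80.9, 79.4 and 83.8 of the knockout lists. The 3 genes of type IX, the FACIT collagen of cartilage, had log2 fold changes of -0.05 ± 0.10 for Col9a1, 0.09 ± 0.07 for Col9a2 and -0.19 ± 0.07 for Col9a3 (SE, n = 3 each). Col9a2 had 1 gained region, and Col9a1 and Col9a3 had none.

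All 4 transmembrane collagen genes had knockout values above their control values, as did 13.1% of all genes, and 2 of them rose, as did 7.57% of all genes. Col13a1, which is known from the neuromuscular junction, had 4496, 3987 and 4003 bp in knockout libraries, against 2661, 2708 and 2542 bp in control libraries. Its groups were well separated, at a log2 fold change of 0.60 ± 0.07 (SE, n = 3 each, adjusted p = 0.0024, limma). Inside the gene it had the highest-ranking gained region of the family (chr10:61874575-61875260), with 608, 675 and 676 bp and percentiles of 87.9, 92.6 and 88.9 in knockout libraries. A further 2 gained regions lay beyond its end, while its start window, shown above, had no peak in any library. A region called in all libraries lay 1057 bp upstream of the gene span (chr10:61980264-61980810). Col17a1, a component of hemidesmosomes, had 1580, 1430 and 1381 bp in knockout libraries, against 568, 1209 and 815 bp in control libraries. The spread among its control libraries was wide, and the log2 fold change was 0.63 ± 0.18 (SE, n = 3 each, adjusted p = 0.043, limma). The call was past the threshold in 1 of 6 fits with a library left out, that without control library 2, with an adjusted p of up to 0.11 in the others, and it was also lost without scaling (adjusted p = 0.056, limma). With the 50000 strongest peaks the change of Col17a1 was 0.27 (adjusted p = 0.79, limma). Col17a1 had 1 gained region (chr19:47674442-47674805), and another inside the gene (chr19:47654729-47655382) had 595, 559 and 643 bp in knockout libraries against 0, 0 and 260 bp in control libraries.

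Col23a1 and Col25a1 were above control in every knockout library without passing the threshold. Col23a1 had 4043, 4065 and 3951 bp in knockout libraries, against 3758, 3605 and 3711 bp in control libraries (log2 fold change 0.11 ± 0.05, SE, n = 3 each, adjusted p = 0.16, limma). It had 3 gained regions, all inside the gene, and without scaling it was past the threshold (adjusted p = 0.020, limma). Col25a1, a collagen of neurons, had 10590, 9987 and 10261 bp in knockout libraries, against 9009, 9652 and 9182 bp in control libraries (log2 fold change 0.14 ± 0.06, SE, n = 3 each, adjusted p = 0.099, limma). It had 2 gained regions inside the gene and 1 lost region beyond it (chr3:130607977-130608306), which measured 316, 326 and 264 bp in control libraries. Without scaling Col25a1 was past the threshold too (0.31, adjusted p = 0.037, limma).

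**Figure D4:**
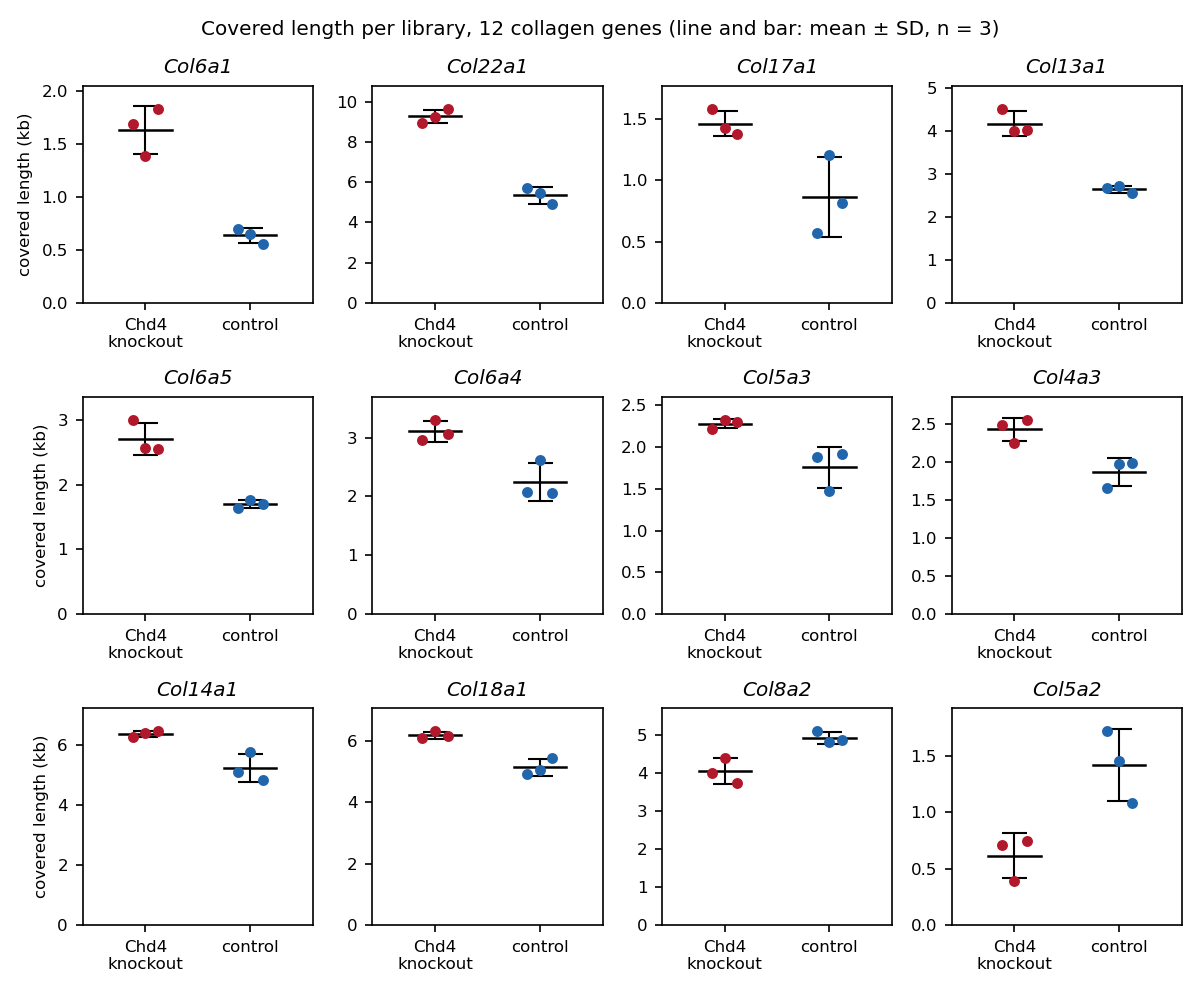
Scaled covered length in kb of each library for the 12 collagen genes past the threshold, knockout left and control right; points are libraries, the line and bar are mean ± SD (n = 3). The knockout points lie above all control points in 10 panels and below them for Col8a2 and Col5a2.

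Of the 6 type IV genes, 1 rose, Col4a3, beside 7.57% of all genes. Col4a3 and Col4a4 share a start region and encode chains of the trimer known from the kidney glomerulus. Col4a3 (chr1:82586921-82722059) had 2481, 2255 and 2550 bp in knockout libraries, against 1663, 1978 and 1981 bp in control libraries. It rose by a log2 fold change of 0.33 ± 0.08 (SE, n = 3 each, adjusted p = 0.029, limma). Leaving out knockout library 1, knockout library 3, control library 1 or control library 3 ended the call, with an adjusted p of at most 0.086, and the change of Col4a3 was 0.16 with 50 kb on either side (adjusted p = 0.28, limma) and -0.04 with the 50000 strongest peaks. Col4a4 had 2293, 2056 and 1818 bp in knockout libraries, against 1301, 1741 and 1585 bp in control libraries, and its log2 fold change of 0.36 ± 0.11 (SE, n = 3 each, adjusted p = 0.054, limma) missed the threshold. Gained regions numbered 2 inside Col4a3, the wider at chr1:82713195-82713847, and 3 inside Col4a4. Col4a1 and Col4a2, the chains of the common basement membrane trimer, had log2 fold changes of -0.21 ± 0.07 (adjusted p = 0.066) and 0.01 ± 0.11 (adjusted p = 0.97, both SE, n = 3 each, limma). Only 1 of the regions at that pair, inside Col4a2, was gained.

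The multiplexin Col18a1, a basement membrane proteoglycan whose end fragment is endostatin, rose and had a wider region over its start. It had 6104, 6318 and 6156 bp in knockout libraries, against 4923, 5055 and 5458 bp in control libraries, a log2 fold change of 0.25 ± 0.06 (SE, n = 3 each, adjusted p = 0.025, limma). The region over its start (chr10:77165488-77166863) contains the sequence shown above. It was wider before scaling, at 1298, 1279 and 1230 bp in knockout libraries against 651, 951 and 758 bp in control libraries. The gene had 4 gained regions and 1 lost one (chr10:77127891-77128318), all inside it. Without knockout library 1, knockout library 2, control library 1 or control library 2 its call was lost, at an adjusted p of at most 0.072. The related Col15a1 had a log2 fold change of -0.03 ± 0.09 (SE, n = 3 each) and 1 gained region.

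Of the 11 fibrillar genes, 1 rose and 1 fell, beside 7.57% of all genes higher and 14.6% lower. Both encode chains of type V, the collagen that limits fibril width. Col5a2 (chr1:45374331-45503282) had 707, 387 and 749 bp in knockout libraries, against 1718, 1450 and 1081 bp in control libraries. It had the largest fall of the family, a log2 fold change of -0.92 ± 0.20 (SE, n = 3 each, adjusted p = 0.018, limma), with no overlap between the groups. The territory held only 2 regions, and the one at the high-coordinate end of the gene (chr1:45502320-45503474) measured 328, 0 and 267 bp in knockout libraries before scaling, against 1041, 984 and 600 bp in control libraries. Since 2 knockout libraries kept a peak there, it does not count as lost. Leaving out control library 1 or control library 2 ended the call of Col5a2, at an adjusted p of at most 0.059. It was also lost with 50 kb on either side (-0.48, adjusted p = 0.18, limma), the gene span alone (-0.80, adjusted p = 0.052, limma), the 50000 strongest peaks (-0.69, adjusted p = 0.28, limma) and no filter on low values (adjusted p = 0.063, limma). Col5a3 (chr9:20770050-20815117) had 2222, 2322 and 2304 bp in knockout libraries, against 1878, 1474 and 1918 bp in control libraries, and rose by a log2 fold change of 0.34 ± 0.09 (SE, n = 3 each, adjusted p = 0.039, limma). It had no gained region, and regions called in all libraries were wider in knockout libraries. The one at chr9:20804136-20805148 measured 877, 919 and 912 bp in knockout libraries, against 703, 690 and 712 bp in control libraries, before scaling. Among the fits with a library left out, its call was kept without control library 2 and lost without any of the other 5, at an adjusted p of up to 0.093. Col5a1, the chain that both can join, had a log2 fold change of 0.33 ± 0.12 (SE, n = 3 each, adjusted p = 0.073, limma) and 1 gained region.

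The genes of type I and type III collagen, the abundant fibrils, were not past the threshold after scaling. Col1a2, a chain of type I collagen, had 2671, 2450 and 3064 bp in knockout libraries, against 2728, 2563 and 2593 bp in control libraries (log2 fold change 0.04 ± 0.08, SE, n = 3 each, adjusted p = 0.72, limma). Just inside its start lay a gained region (chr6:4506060-4506576), with 517, 343 and 335 bp in knockout libraries. It is the one gained region within 1 kb of a known start of a collagen gene, downstream of the sequence shown above. Beyond the other end of the gene a gained region (chr6:4544550-4544955) and a lost region (chr6:4545808-4546276) lay side by side. Col1a1, the other type I chain, had a log2 fold change of 0.07 ± 0.05 (SE, n = 3 each, adjusted p = 0.37, limma), with all knockout values above the control values, and without scaling it was past the threshold (0.23, adjusted p = 0.045, limma). Its gained region (chr11:94945618-94946323) inside the gene measured 678, 694 and 506 bp and ranked at percentiles of 71.8, 74.2 and 70.1 in knockout libraries. Col3a1, the type III chain, had 1 region, called in all libraries, at 489, 515 and 540 bp in knockout libraries before scaling and 500, 497 and 511 bp in control libraries. Col24a1 had 4220, 3625 and 5065 bp in knockout libraries, against 4817, 5302 and 4999 bp in control libraries (log2 fold change -0.22 ± 0.11, SE, n = 3 each, adjusted p = 0.16, limma), with 1 gained and 2 lost regions inside the gene.

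**Figure D5:**
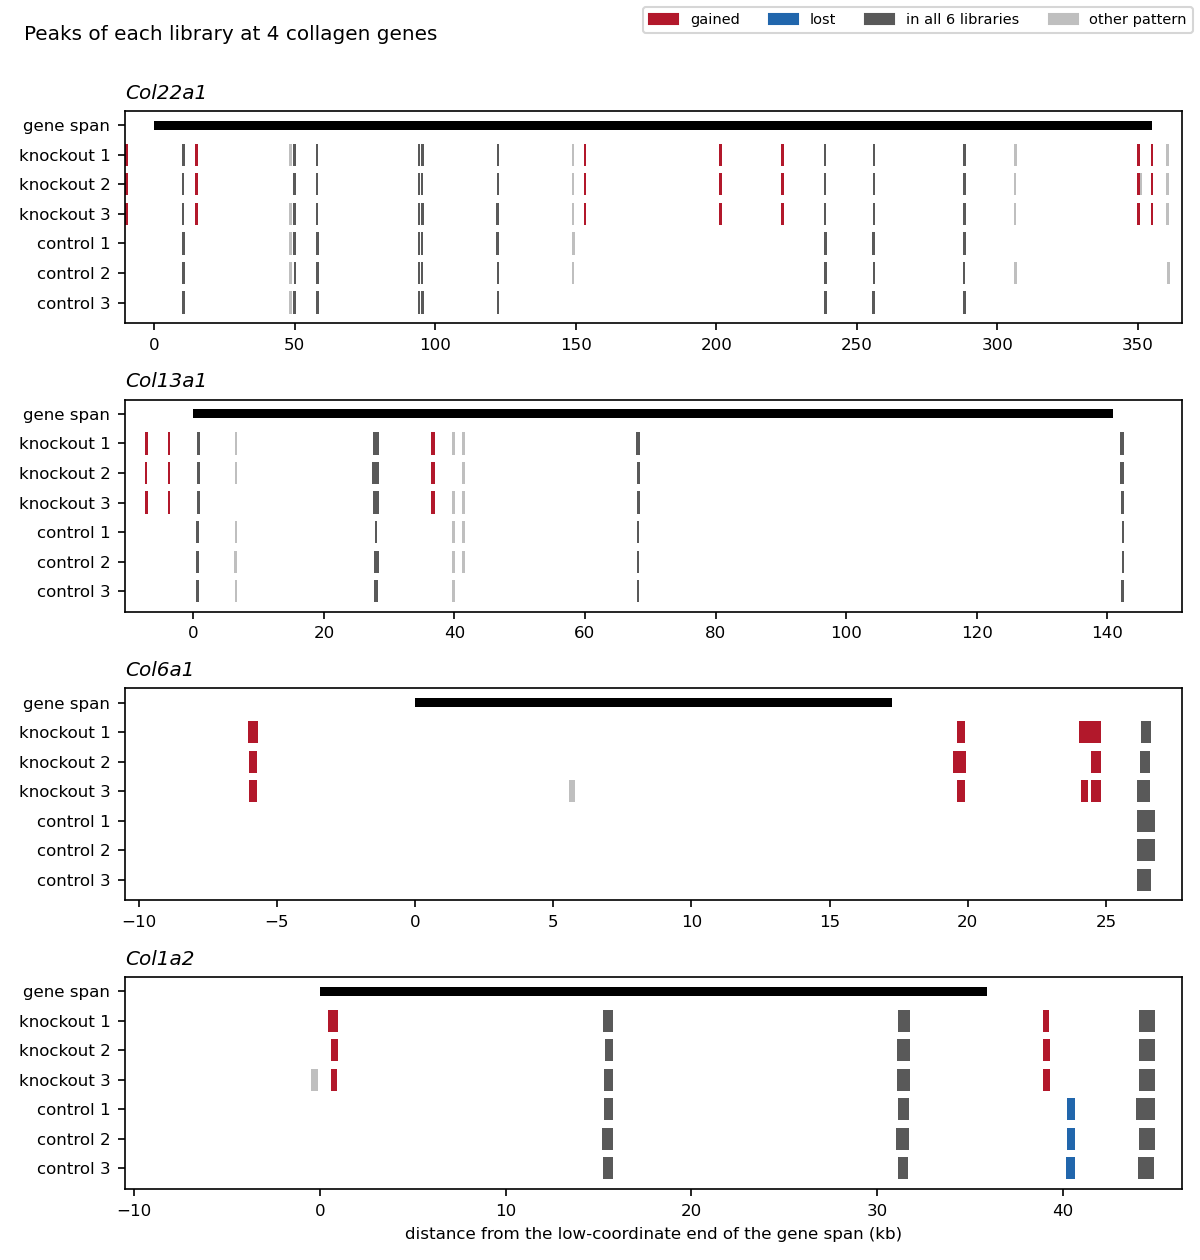
Peaks of each library along Col22a1, Col13a1, Col6a1 and Col1a2, with distance in kb from the low-coordinate end of the gene span; knockout libraries are the upper 3 rows and narrow peaks are drawn wider than scale so that they can be seen. Red marks are gained regions, blue marks are lost regions, dark marks are called in all 6 libraries, and at Col6a1 every red mark lies outside the gene span.

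In the 3 genes of the short-chain types VIII and X every knockout library was below every control library after scaling, as in 32.7% of all genes. Before scaling the groups overlapped in all 3. Col8a2, a chain of the type VIII network made by endothelial cells, had 3988, 4395 and 3731 bp in knockout libraries, against 5087, 4798 and 4858 bp in control libraries. It fell by a log2 fold change of -0.27 ± 0.07 (SE, n = 3 each, adjusted p = 0.035, limma), but without scaling the change was -0.11 (adjusted p = 0.42, limma). With the gene span alone it was -0.14 (adjusted p = 0.30, limma), and 4 other genes share its territory. The change of Col8a2 was -0.33 with the 50000 strongest peaks (adjusted p = 0.52, limma). With a library left out, the call was kept without knockout library 2 and lost without any of the other 5, at an adjusted p of up to 0.096. Col8a2 had no gained or lost region. A region called in all libraries (chr4:126277749-126278442), outside the gene span, was narrower before scaling. It measured 332, 474 and 289 bp in knockout libraries against 672, 650 and 512 bp in control libraries. The partner of Col8a2, Col8a1, had a log2 fold change of -0.24 ± 0.08 (adjusted p = 0.061) and 1 lost region, and Col10a1, a marker of hypertrophic cartilage, had -0.40 ± 0.12 (adjusted p = 0.054, both SE, n = 3 each, limma). The territory of Col10a1 held 2 regions. The first, called in all libraries, lay 3646 bp outside the gene span and within Nt5dc1. The second, at the end of Col10a1, was a peak of control library 2 alone, at percentile 1.6 of its list. Of the remaining genes, Col26a1 had 3172, 2999 and 3072 bp in knockout libraries, against 2675, 2196 and 3080 bp in control libraries (log2 fold change 0.21 ± 0.11, SE, n = 3 each, adjusted p = 0.18, limma). Its groups overlapped, it had 3 gained regions inside the gene, and without scaling it was past the threshold (0.36, adjusted p = 0.034, limma). Col28a1 had 7460, 7373 and 8489 bp in knockout libraries, against 8505, 8805 and 8765 bp in control libraries (log2 fold change -0.16 ± 0.07, SE, n = 3 each, adjusted p = 0.12, limma), with 1 lost region, and its change was 0.01 without scaling. Col7a1, the anchoring fibril collagen of skin, had 1 region, called in all libraries.

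Genes that make, bind or neighbor collagen were counted from lists of genes with known roles. The lists were chosen with earlier results of these data known, so their counts describe these genes and support nothing more. The counts of these lists stand beside 7.57% of all genes higher and 14.6% lower. Of 31 biosynthesis genes tested, 1 was higher and 3 were lower, with a median log2 fold change of -0.02. Adamts2, the protease that trims procollagen ends, had 4395 ± 360 bp in knockout libraries and 2647 ± 157 bp in control libraries (SD, n = 3 each, log2 fold change 0.67 ± 0.08 SE, adjusted p = 0.0025, limma), with 5 gained regions. The 3 lower genes were P4ha1, a prolyl hydroxylase subunit, Crtap, of the prolyl 3-hydroxylation complex, and Mia3, which loads procollagen for export, at -0.32, -0.30 and -0.36. Of 9 collagen receptor genes tested, 4 were higher and 1 was lower, with a median of 0.22. Ddr2, a receptor kinase for fibrillar collagen, had a log2 fold change of 0.57 ± 0.10 and Mrc2, which takes up collagen for breakdown, 0.56 ± 0.07 (SE, n = 3 each). Integrin genes Itga1 and Itga10 were each at 0.22, while the receptor kinase gene of epithelia, Ddr1, was at -0.26. Of 18 genes for other basement membrane proteins, 3 were higher, with a median of -0.01. Hspg2, which encodes perlecan, was at 0.53 ± 0.09, the nidogen gene Nid2 at 0.51 ± 0.08 (SE, n = 3 each) and Lamc3 at 0.28. The balance of these lists turned with the scaling. Without it, when 2586 of all 17711 genes were higher and 510 lower, 6 biosynthesis genes were higher and none lower (median 0.14), 6 receptor genes were higher and none lower (median 0.38), and 5 basement membrane genes were higher (median 0.13). The lower calls of P4ha1, Crtap, Mia3 and Ddr1 thus rest on the scaling to equal totals.

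Markers of other pancreatic cells were counted by the same threshold, past which 7.57% of all genes were higher and 14.6% lower. Their lists too were chosen with earlier results of these data known. The libraries held 119088 to 124125 peaks in knockout and 100109 to 110693 in control, and Chd4 itself had 5079 ± 404 bp in knockout libraries and 5692 ± 361 bp in control libraries (SD, n = 3 each, log2 fold change -0.16 ± 0.08 SE, adjusted p = 0.17, limma), which does not check the deletion, since open chromatin over the gene need not change with it. None of the 10 β-cell markers was at 0 in all libraries, with summed covered lengths of 38.3 to 39.3 kb in knockout libraries and 42.8 to 48.2 kb in control libraries, and Ins1 and Mafa were lower. Of 14 mesenchymal and stellate markers, 12 were tested, 4 were higher (Pdgfrb, Des, Thy1 and Prrx1) and none was lower. Their summed covered length was 24.8 to 25.8 kb in knockout libraries and 20.9 to 21.6 kb in control libraries, and none was at 0. Of 11 endothelial markers, 10 were tested, 2 were higher (Erg and Eng) and 3 were lower (Flt1, Emcn and Sox17). The list summed to 20 to 20.9 kb in knockout libraries and 19.0 to 19.6 kb in control libraries, and Tie1 was at 0 in every library. Of 10 acinar markers, 6 were tested, and Cela2a and Ctrb1 were higher. The acinar sums were 7.13 to 8.89 kb in knockout libraries and 6.10 to 6.33 kb in control libraries, and Cpa1 and Amy2b were at 0 in every library. The part of these cells in the collagen values was not tested. Ductal markers summed to 21.2 to 24.3 kb in knockout libraries and 22.8 to 24.8 kb in control libraries, with 1 lower and none higher. Leukocyte markers summed to 12.8 to 14.4 kb in knockout libraries and 14.5 to 14.8 kb in control libraries. Of these 10 markers 7 were tested, with 1 higher and 2 lower, and Adgre1 was at 0 in every library. Among α-cell and δ-cell markers, Irx2 and Hhex were lower, and none of 6 Schwann cell markers was past the threshold. Without scaling, the mesenchymal list again had 4 higher and no lower genes, while the endothelial list had 3 higher and none lower. The β-cell list then had 1 higher gene and, with Mafa no longer past the threshold, 1 lower gene, Ins1, and the leukocyte list had 1 higher and none lower.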

How the data were processed

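Peaks were called per library on shifted cutting sites with MACS2, per the peak names inside the deposited files, on mm10, per the submitters' processing notes. No source used here names the aligner, the caller's version or the read filters. The deposited lists give each peak a score, a ratio (its fold enrichment), and both −log10 p and −log10 q, all the authors' own and used only to rank or filter peaks within a list. Every peak is at least 200 bp wide with a −log10 q of at least 1.31. No read counts are held, so depth is unknown and intervals from counted reads could not be given. Precision rests on the 3 libraries of each group.

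Gene spans and symbols came from RefSeq on GRCm38.p6. Covered length was scaled to the mean library total, 300 bp were added and log2 taken, so changes of genes with few peaks are understated. All genes with a mean unscaled length of at least 300 bp were fitted in R 4.3.3, using the trend option of limma 3.58.1 and Benjamini-Hochberg adjustment at 0.05, and the fit was tested on simulated data. Percentiles rank a peak's −log10 q within its own list. Covered length is not a read count and depends on how many peaks were called. Regions within 1 kb of a gene end were placed there. Of the collagen genes, 29 share territory with another gene, 8 of them with another collagen.

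The members, their classes and the other gene lists were chosen with earlier results of these data known. Values in every library are given for genes past the threshold, with at least 3 gained or 2 lost regions, with groups that do not overlap and a change of at least 0.5, or among the 5 longest covered lengths, which names 20 genes, and Col1a2 and Col3a1 were added after their values were seen. Alternatives covered the scaling, peak threshold, flank, pseudocount, filter, overlap rule, replicate block and each library left out. Replicate numbers were not taken as pairs. A result for 1 gene of the basement membrane list is not reported here.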

Additional observations from a re-analysis of the deposited data

How the results depend on the processing

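Col22a1, Col6a1, Col6a5 and Col13a1 were past the threshold in all 6 fits that left out 1 library. The 50000 strongest peaks, though, ended the calls of Col6a1 and Col6a5. Over the 6 fits the higher collagen genes numbered 4 to 9 and the lower ones 0 to 3. Higher calls over all genes numbered 698 to 1173 in these fits, and lower calls 840 to 2225. The median log2 fold change of collagen genes was 0 to 0.08, gained regions were 56 to 61 and lost ones 8 to 12. The median was 0.17 with no scaling, 0.16 with scaling by shared regions, 0.09 with the gene span alone and 0.06 with the 50000 strongest peaks. With the gene span alone 40 collagen genes were tested. Col6a1 was not among them, so its call could not be checked without the flanks. Lower collagen genes numbered 1 with no scaling and with scaling by shared regions. Both settings ended the call of Col8a2 (adjusted p = 0.42 and 0.27, limma). A filter at 1000 bp also left 1, because Col5a2 was not tested there, and it kept the 11 calls it did test. Higher collagen genes numbered 16 with scaling by shared regions (2564 over all genes). The 50000 strongest peaks gave 5 higher and 0 lower collagen genes (1165 and 1543 over all genes). That setting kept 4 of the 12 calls, those of Col22a1, Col13a1, Col18a1 and Col5a3. It ended the calls of Col14a1, Col4a3, Col6a1, Col6a4, Col6a5, Col5a2, Col8a2 and Col17a1. Regions then numbered 17 gained and 15 lost (5782 and 4562 over all regions). No filter on low values gave 6 higher and 0 lower (1027 and 1827 over all genes) and kept 5 of the 12 calls. A span plus 50 kb gave 84 gained and 14 lost regions and ended the calls of Col14a1, Col4a3, Col6a5 and Col5a2, and a peak over 50% of the region gave 15 lost ones. Direction turned for Col19a1 (0.08 with no scaling, 0.06 with shared regions), Col28a1 (0.01 with no scaling) and, with the 50000 strongest peaks, Col26a1 (-0.50), Col4a3 (-0.04), Col6a1 (-0.11), Col6a6 (-0.10) and Col24a1 (0.42). The cause was not tested, beyond fewer peaks entering the last setting. Whether replicate numbers pair the libraries is not known. Correlations of deviations from the group means were 0.13, 0.09 and -0.03 for equal numbers and -0.16 to 0.08 for unequal ones. With 3 libraries in each group these values cannot decide it. A replicate block gave 7 higher collagen genes and 1 lower (1164 and 1937 over all genes), without Col14a1, Col5a3, Col8a2 and Col17a1. A stricter peak threshold and pseudocounts of 100 and 1000 bp left all 12 calls in place. The unknown depth limits every count of peaks.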
